A study of Mus musculus with 36 samples.

Results

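The constitutive proteasome subunits were 33 genes of the 19879 listed in the deposited tables. They were taken by gene symbol from a list that was chosen with earlier results of these data known. The list held the alpha ring genes Psma1 to Psma7, the beta ring genes Psmb1 to Psmb7, the ATPase genes Psmc1 to Psmc6, 11 non-ATPase genes of the regulatory particle (Psmd1, Psmd2, Psmd3, Psmd4, Psmd6, Psmd7, Psmd8, Psmd11, Psmd12, Psmd13 and Psmd14), the activator gene Psme4 and the maturation gene Pomp. All 33 were found, and all 33 passed the filter on low values in every comparison. The lowest value of any member in any library was 822 normalised reads when all 36 libraries were scaled together. Reads quoted below for a pair of groups were scaled within that pair and can be lower. A normalised read count is the number of reads counted for a gene divided by the size factor of its library, a scale factor for depth.

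The libraries were made from poly(A) RNA of BV-2 cells, an immortalised mouse microglial cell line used as a model of microglia, the resident macrophages of the brain. The 12 groups of 3 libraries were cells given the vehicle DMSO, the vehicle EtOH, LPS (bacterial lipopolysaccharide, 600 ng/mL), LPS with dimethyl fumarate (LPS+DMF, 30 µM), LPS with monomethyl fumarate (LPS+MMF, 30 µM) or LPS with cannabidiol (LPS+CBD, 6 µM), each for 4 h or 24 h. All cultures were wild type, were switched to low-serum medium at the time of treatment, and held vehicle at 0.2%. DMF and MMF were dissolved in DMSO and CBD in EtOH, the vehicle groups had no LPS, and the labels do not name the vehicle of the cells given LPS alone. The 3 libraries of a group came from 3 independent experiments with 1 cell line, not from animals.

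The proteasome is the protease that degrades ubiquitin-tagged proteins in the cytosol and nucleus. Its 20S core is a barrel of alpha rings, which gate the channel, and beta rings, whose subunits Psmb6, Psmb7 and Psmb5 carry the caspase-like, trypsin-like and chymotrypsin-like sites. Pomp brings the core's parts together and is itself degraded when assembly ends. The 19S regulatory particle has a ring of ATPases that unfolds substrates and non-ATPase subunits that bind ubiquitin chains (Psmd4) or remove them (Psmd14), and Psme4 is an alternative cap. In macrophages and microglia, inflammatory signals are known to raise a second set of catalytic subunits, those of the immunoproteasome, which are not members here.

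Promoters are shown for Psmd11, the 1 member called with DMF at 4 h, for Psmb6 and Psmd8, which had the largest rises with CBD at 24 h, and for the catalytic Psmb5. Psmd11 was thus also taken by its result, and the last 3 were chosen after their values were seen. Each sequence is the 250 bases before the start of the canonical transcript (build GRCm39, annotation GENCODE vM39), read 5′ to 3′ on the gene's strand, and capitals mark the motif TGACNNNGC, the core of the antioxidant response element. Psmd11 (chr11:80319179-80319428, plus strand) and Psmd8 (chr7:28880136-28880385, minus strand) held no match to it, Psmb5 (chr14:54855482-54855731, minus strand) held 1 that began 18 bases before the start, and Psmb6 (chr11:70415933-70416182, plus strand) held 1 that began 9 bases before it.
Psmd11: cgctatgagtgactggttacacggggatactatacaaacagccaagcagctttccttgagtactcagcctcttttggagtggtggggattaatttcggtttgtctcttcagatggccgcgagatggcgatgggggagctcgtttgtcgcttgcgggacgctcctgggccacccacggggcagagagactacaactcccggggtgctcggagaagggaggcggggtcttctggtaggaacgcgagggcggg
Psmd8: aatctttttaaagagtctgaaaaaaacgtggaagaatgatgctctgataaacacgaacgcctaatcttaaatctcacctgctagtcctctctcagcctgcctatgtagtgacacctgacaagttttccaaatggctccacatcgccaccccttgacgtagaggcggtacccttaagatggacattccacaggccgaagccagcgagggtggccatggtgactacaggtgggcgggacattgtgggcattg
Psmb5: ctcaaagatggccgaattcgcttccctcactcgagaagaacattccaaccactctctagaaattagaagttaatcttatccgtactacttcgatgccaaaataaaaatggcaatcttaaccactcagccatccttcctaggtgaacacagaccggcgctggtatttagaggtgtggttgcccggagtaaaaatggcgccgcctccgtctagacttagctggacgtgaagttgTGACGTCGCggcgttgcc
Psmb6: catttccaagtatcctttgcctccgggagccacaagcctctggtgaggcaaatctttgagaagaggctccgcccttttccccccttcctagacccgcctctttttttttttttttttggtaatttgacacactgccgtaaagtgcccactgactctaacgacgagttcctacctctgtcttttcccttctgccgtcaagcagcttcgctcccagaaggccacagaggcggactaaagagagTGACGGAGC
Searched on both strands, TGACNNNGC was in the window of 5 of the 33 members (15.2%), namely Psmb5, Psmb6, Psmc6, Psmd7 and Psmd12, and in 2110 of 21770 windows of protein-coding genes (9.7%). The CCAAT box was in 14 members (42.4%) and in 7946 of all windows (36.5%). None of the 4 windows shown held a CCAAT box, and a match describes the letters of the window, not binding.

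The libraries held 14110424 to 26676607 counted reads. All 10 microglia and macrophage markers examined were listed with a median of at least 10 normalised reads, with a summed level of 32166 to 55392, whereas the neuronal markers summed to at most 12.5 the astrocyte markers to at most 28.2, the T cell markers to at most 34.1 and the endothelial markers to at most 156. Mbp, a myelin gene, stood at 658 to 1508 in all libraries, with the myelin genes Mog and Mobp at a median of 0. In bulk samples such as these, fewer cells of a type and less RNA per cell cannot be told apart.

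The members took a larger share of the counted reads at 4 h than at 24 h in every treatment. The share was 0.563% ± 0.0293 (SD, n = 3) with DMSO at 4 h and 0.458% ± 0.0175 at 24 h. With EtOH it was 0.574% ± 0.0257 and 0.468% ± 0.0203, and with LPS 0.608% ± 0.00185 and 0.497% ± 0.0218. In LPS+DMF cells it was 0.650% ± 0.0634 at 4 h and 0.463% ± 0.0165 at 24 h, in LPS+MMF cells 0.599% ± 0.0320 and 0.492% ± 0.0209, and in LPS+CBD cells 0.590% ± 0.0278 and 0.513% ± 0.0128. The LPS+DMF group at 4 h was the most spread: its 3 libraries stood at 0.718%, 0.593% and 0.639%, and the 95% Wilson interval of the first, for counting error alone, ran from 0.714% to 0.723%. That library, replicate 1, was the highest of the 36.

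**Figure D1:**
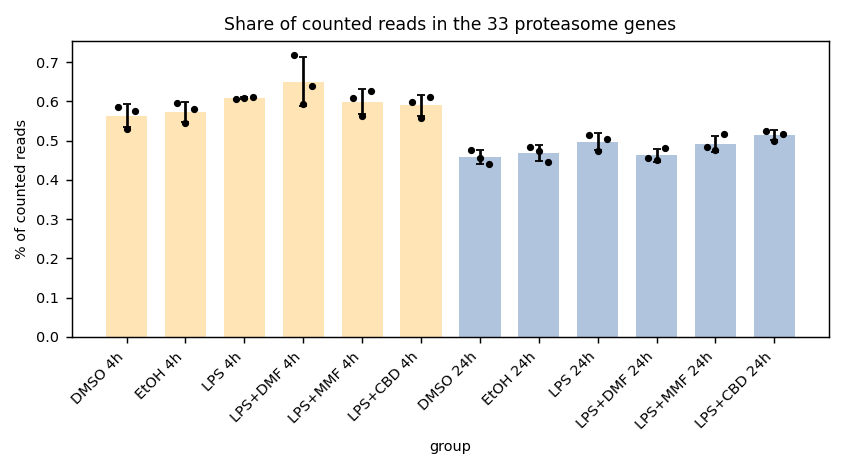
Share of all counted reads that fell in the 33 proteasome genes (vertical axis, percent, starting at 0), for the 12 groups. Bars are means of 3 libraries, whiskers the SD and points the libraries; each treatment's 24 h bar is below its 4 h bar, and the highest point, 0.718%, is replicate 1 of LPS+DMF at 4 h.

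Across the 12 group means most members followed 1 profile. On the log2 scale, 26 of the 33 had a correlation above 0.8 with the mean of the other members, and the median was 0.93. This is a description over 12 groups that share libraries and their normalisation. Psme4 ran against the others (-0.80), as did Psmd8 (-0.37), and Psmb1, a non-catalytic beta subunit, hardly followed them (0.24). The spread between a member's highest and lowest group mean had a median of 0.73 on the log2 scale and was widest in Psmd7 (1.07) and Psmd8 (1.02) and narrowest in Psmb1 (0.23). The highest group mean was that of LPS+DMF at 4 h for 25 members, of LPS at 4 h for 4 and of LPS+CBD at 24 h for the remaining 4, which were Psmb1, Psmb6, Psmd8 and Psme4. Without LPS+DMF replicate 1 at 4 h, an alternative chosen after seeing the data, these counts were 21, 8 and 4.

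**Figure D2:**
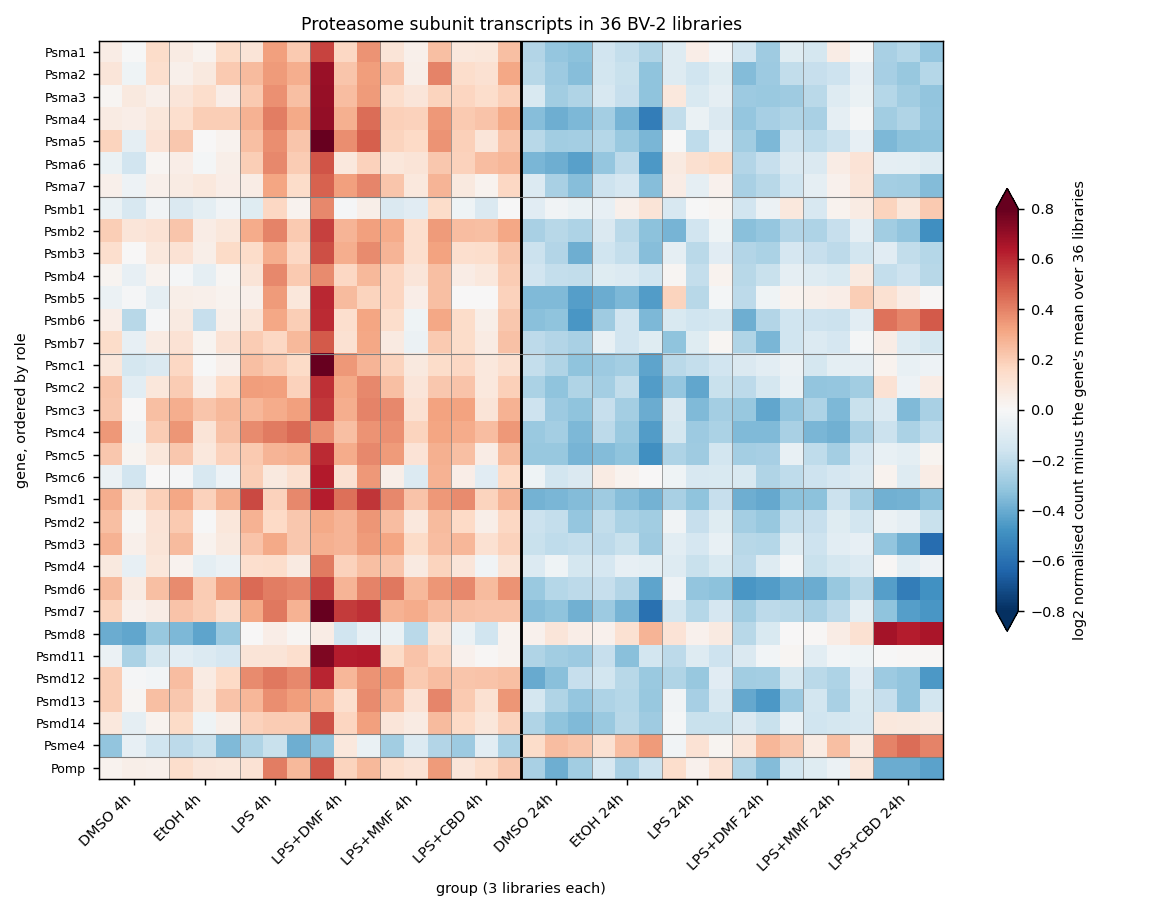
Level of each of the 33 members (rows, ordered by role) in each of the 36 libraries (columns, ordered by group), as log2 normalised reads minus the gene's mean over all libraries, with colours clipped at ± 0.8. The black line separates 4 h from 24 h; most members are higher to its left, Psme4 is higher to its right, Psmd8 is highest in the 3 LPS+CBD libraries at 24 h, and Psmb6 is high both there and in LPS+DMF replicate 1 at 4 h.

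The comparison of the exposure times asked how the members differed between 24 h and 4 h of the same treatment. Length of exposure, time in low serum and age of the culture changed together and cannot be told apart. Most members were lower at 24 h in every treatment. A member was called where limma's Benjamini-Hochberg adjusted p, over all genes tested, was below 0.05. With DMSO 27 members were called lower and 2 higher, where 25.8% of all genes were called lower and 51.6% in either direction. With EtOH the counts were 26 and 2 (29.5% of all genes lower, 58.6% either way), with LPS 26 and 1 (24.3% and 48.9%), with LPS+DMF 30 and 1 (29.1% and 58.8%), with LPS+MMF 23 and 1 (24.3% and 49.5%) and with LPS+CBD 22 and 4 (31.6% and 63.2%). The median log2 difference of the members was -0.36 with DMSO, -0.36 with EtOH, -0.35 with LPS, -0.61 with LPS+DMF, -0.31 with LPS+MMF and -0.35 with LPS+CBD, while the median of all genes lay within 0.01 of 0 in each. Leaving out LPS+MMF replicate 2 at 4 h moved that group's median to -0.37, and leaving out LPS+DMF replicate 1 at 4 h moved that of LPS+DMF to -0.55, with 30 members called in either direction.

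The members called lower at 24 h in all 6 treatments numbered 16, where 12.3% of the 11175 genes tested in all 6 were called lower in each. They were 4 of 7 alpha, 2 of 7 beta, 3 of 6 ATPase and 7 of 11 non-ATPase genes. For 14 members all 18 libraries at 24 h were below all 18 at 4 h, which was so for 7.97% of the 12431 genes tested. No member had all its 24 h libraries above those at 4 h, which was so for 4.55% of genes.

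Psmd1, the large scaffold subunit of the regulatory particle's base, showed the widest fall. In LPS+DMF cells it stood at 2150, 2115 and 2239 normalised reads at 24 h and at 4391, 3838 and 4206 at 4 h. The groups were far apart, and Psmd1 fell by 0.93 on the log2 scale (SE 0.08, limma adjusted p = 1.15e-05). Psmd7, the lid subunit that pairs with Psmd14, read 2910, 3049 and 3019 against 6244, 5230 and 5311 there, a fall by 0.90 (SE 0.09). The lid subunit Psmd6 read 1248, 1262 and 1302 against 2508, 2090 and 2266, a fall by 0.84 (SE 0.09). Without LPS+DMF replicate 1 at 4 h the differences were -0.89 for Psmd1, -0.82 for Psmd7 and -0.78 for Psmd6. Exons of Psmd1 overlap the gene Htr2b on the other strand and the protein-coding gene Gm21972 on the same strand. The sources used here do not say whether reads were counted by strand, so reads from these genes cannot be told apart.

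Psmd1, Psmd6, Psmd7 and the ATPase Psmc4 supplied the largest falls in the other treatments. With DMSO the 3 largest were Psmd1 (-0.58, SE 0.07), Psmc4 (-0.51, SE 0.09) and Psmd7 (-0.46, SE 0.06), and with EtOH they were Psmd7 (-0.62, SE 0.08), Psmd1 (-0.61, SE 0.06) and Psmd6 (-0.61, SE 0.08). With LPS they were Psmd6 (-0.65, SE 0.09), Psmc4 (-0.65, SE 0.08) and Psmd1 (-0.63, SE 0.10), and with LPS+MMF Psmd6 (-0.66, SE 0.08), Psmc4 (-0.63, SE 0.08) and Psmd1 (-0.58, SE 0.08). With LPS+CBD they were Psmd6 (-0.83, SE 0.07), Psmd1 (-0.65, SE 0.07) and Psmd7 (-0.65, SE 0.07). In the LPS libraries Psmd6 read 1709, 1394 and 1398 at 24 h against 2413, 2330 and 2301 at 4 h, with no overlap.

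Psme4, the gene of the alternative cap PA200, went the other way in all 6 treatments. Its normalised reads were 1387, 1473 and 1447 at 24 h against 1018, 1211 and 1132 at 4 h with DMSO (0.36 on the log2 scale, SE 0.08, limma adjusted p = 0.00282). It was higher by 0.46 with EtOH, 0.30 with LPS, 0.28 with LPS+DMF, 0.33 with LPS+MMF and 0.61 with LPS+CBD. The call with LPS+DMF (limma adjusted p = 0.046) held in 1 of the 6 fits that left out a library, and the difference was 0.17 without LPS+DMF replicate 1 at 4 h.

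Psmd8, a lid subunit, was higher at 24 h in both vehicles and with CBD, but not called with LPS, LPS+DMF or LPS+MMF (0.04, -0.06 and 0.11). With DMSO it read 6183, 6366 and 6182 at 24 h against 4612, 4553 and 4937 at 4 h, a rise of 0.41 (SE 0.06), and with EtOH the rise was 0.48 (SE 0.07). In LPS+CBD cells it read 10563, 10275 and 10512 against 6487, 5966 and 6863, a rise of 0.70 (SE 0.07, limma adjusted p = 2.87e-05). Psmb6 was lower at 24 h in the other 5 treatments, with log2 differences of -0.26 to -0.62, and higher in LPS+CBD cells, where it read 2595, 2520 and 2704 against 2144, 1987 and 2256 (0.29, SE 0.07). The fourth member called higher there was Psmb1 (0.20).

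Among the remaining catalytic and named members, Psmb5 was called lower with DMSO (-0.36), EtOH (-0.46) and LPS+DMF (-0.42) and not with LPS (-0.18), LPS+MMF (-0.07) or LPS+CBD (-0.01). Psmb7 was called lower in 5 treatments (-0.21 to -0.57), and in LPS+MMF cells its difference of -0.17 had a limma adjusted p of 0.118, which was 0.0391 when replicate number was fitted as a block. Pomp fell with DMSO (-0.37), EtOH (-0.32), LPS+DMF (-0.56) and LPS+CBD (-0.57). With LPS+MMF its difference of -0.22 had a limma adjusted p of 0.0517, or 0.00951 with the block, and with LPS it was -0.17 (0.139). Psmd4 was lower with LPS (-0.26), LPS+DMF (-0.40) and LPS+MMF (-0.31), and Psmd14 in all but LPS+CBD cells (-0.29 to -0.46, against -0.08 there).

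**Figure D3:**
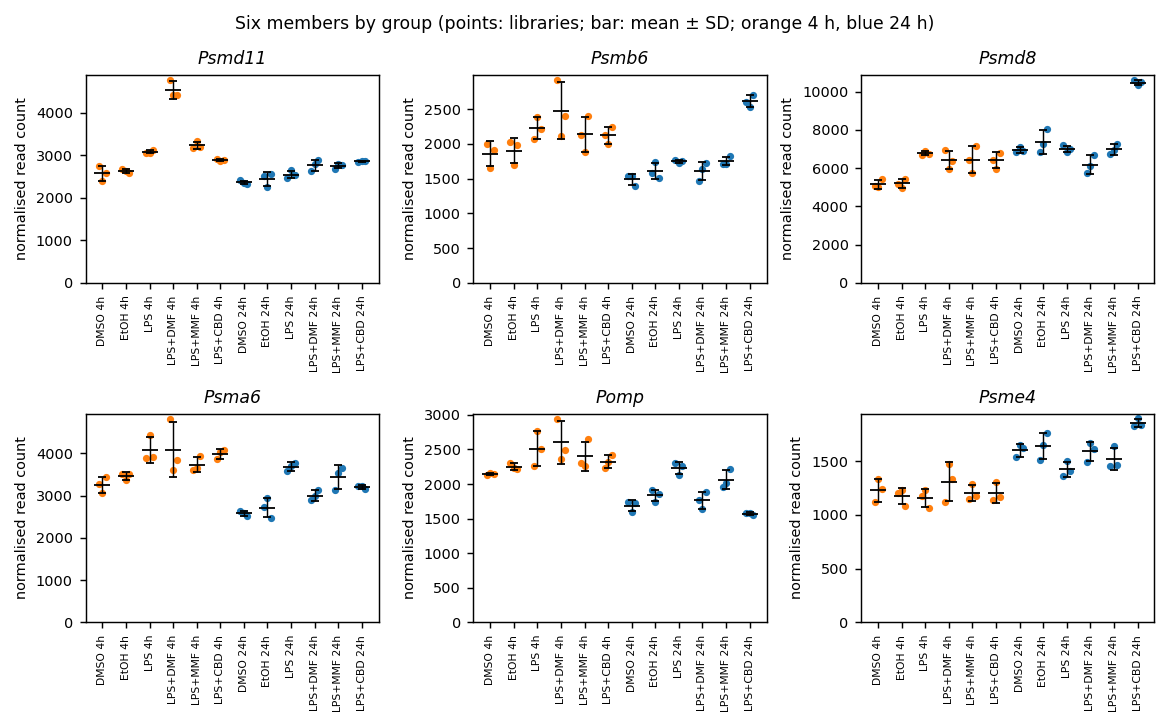
Normalised reads (vertical axes, linear, scaled over all 36 libraries together) of Psmd11, Psmb6, Psmd8, Psma6, Pomp and Psme4 in each library by treatment, at 4 h (orange) and 24 h (blue), with mean ± SD of 3 libraries. By group mean, Psmd11 is highest with LPS+DMF at 4 h, Psmb6 and Psmd8 with LPS+CBD at 24 h, and Psme4 is higher at 24 h in each treatment.

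LPS alone was compared with each vehicle at each time, to ask how the inflammatory stimulus moved the members. After 4 h few members were called, although nearly all had a positive difference. Against DMSO, 32 of 33 members had a positive difference (49.9% of all genes) and the median was 0.20 on the log2 scale, against 0.00 over all genes. The groups did not overlap, with LPS higher, for 25 members (18.2% of all genes). Called higher were 5 members, where 7.7% of all genes were called higher and 14.1% either way, and none was called lower. Without LPS replicate 3, DMSO replicate 5 or DMSO replicate 6 the count was 1, and with a gene's GC content and length fitted as a trend it was also 1, with a median of 0.11.

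Psmd8 was the largest of these rises. It read 6312, 6554 and 6341 normalised reads with LPS against 4746, 4774 and 5133 with DMSO, and was called (0.39, SE 0.06, limma adjusted p = 0.00509) in all 6 fits that left out a library. The lid subunit Psmd12 read 2363, 2443 and 2369 against 2070, 1828 and 1798 (0.34, SE 0.07). The alpha subunit Psma6 read 3669, 4203 and 3682 against 3073, 2917 and 3255 (0.32, SE 0.08). Psmd11 and Psma4 rose by less (0.26 and 0.25). None of these 5 had overlapping groups. Psmb6 (0.26, adjusted p = 0.086), Pomp (0.22), Psmb5 (0.20), Psmd14 (0.18) and Psmb7 (0.16) were not called by limma, nor were Psmd4 (0.07) and Psme4 (-0.09), the 1 member with a negative difference.

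Against EtOH at 4 h the called members were 3 of the same 5, all higher, where 5.69% of all genes were called higher and 10.2% either way, and the median was 0.15. Psmd8 read 6547, 6796 and 6571 against 5051, 4888 and 5315 (0.39, SE 0.06, limma adjusted p = 0.00553), Psmd12 differed by 0.24 (SE 0.06, 0.0497) and Psmd11 by 0.23 (SE 0.05, 0.0312). Leaving out LPS replicate 3 or EtOH replicate 4, 5 or 6 left 1, as did the GC and length trend, under which the median was 0.07. The uncalled named members were Psmb6 (0.23), Pomp (0.15), Psmd4 (0.15), Psmd14 (0.14), Psmb5 (0.12), Psmb7 (0.12) and Psme4 (-0.02). Both comparisons use the same LPS libraries.

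After 24 h the members called with LPS were genes of the 20S core and its maturation protein. Whether the core differed from the regulatory particle was not tested, and against EtOH the share of members called higher was near that of all genes. Against DMSO, 7 members were higher and none lower, where 12.1% of all genes were called higher and 22.7% either way: 4 alpha genes, 2 beta genes and Pomp. Against EtOH, 4 were higher (Psma6, Psmb5, Psma4 and Pomp) and none lower, where 10.8% of all genes were called higher and 20.5% either way. All 7 alpha genes had groups that did not overlap, with LPS higher, in both comparisons (20.2% and 19.2% of all genes). The medians over the 33 members were 0.12 and 0.11, and none of the 6 ATPase or 11 non-ATPase genes was called by limma, with 2 of these 17 at an unadjusted p below 0.05 in each comparison.

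Psma6 rose most: 3387, 3534 and 3562 normalised reads with LPS against 2463, 2446 and 2358 with DMSO (0.53, SE 0.06, limma adjusted p = 0.000194), and 0.45 against EtOH (SE 0.08, 0.00185). Pomp read 2181, 2031 and 2133 against 1630, 1501 and 1617 (0.42, SE 0.07, limma adjusted p = 0.0015), and differed by 0.29 from EtOH (SE 0.07). Both were far apart from the vehicle libraries, and Psma6 was called in every fit that left out a library. Psmb5, the chymotrypsin-like subunit, read 1201, 914 and 1041 against 819, 826 and 773 (0.38, SE 0.10) and differed by 0.39 from EtOH (SE 0.10). Psma1 (0.28), Psma7 (0.26), Psma4 (0.25) and Psmb6 (0.25) completed the calls against DMSO, and Psma4 (0.29) those against EtOH.

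The count against DMSO was 4 without LPS replicate 1, 2 without LPS replicate 3 or DMSO replicate 5 or 6, and 3 with the GC and length trend. Against EtOH it was 1 without LPS replicate 3, and 2 without EtOH replicate 5 or 6 or with that trend. Not called against DMSO and EtOH were Psmd14 (0.20 and 0.15), Psmb7 (0.11 and -0.02), Psmd4 (-0.03 in both) and Psme4 (-0.16 and -0.19). Exons of Pomp and Psma7 overlap Slc46a3 and Ss18l1 on the other strand, and the annotation lists pseudogenes of Psmb5, Psmb6, Psmb7 and Psma5, so that reads shared with these could not be separated.

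**Figure D4:**
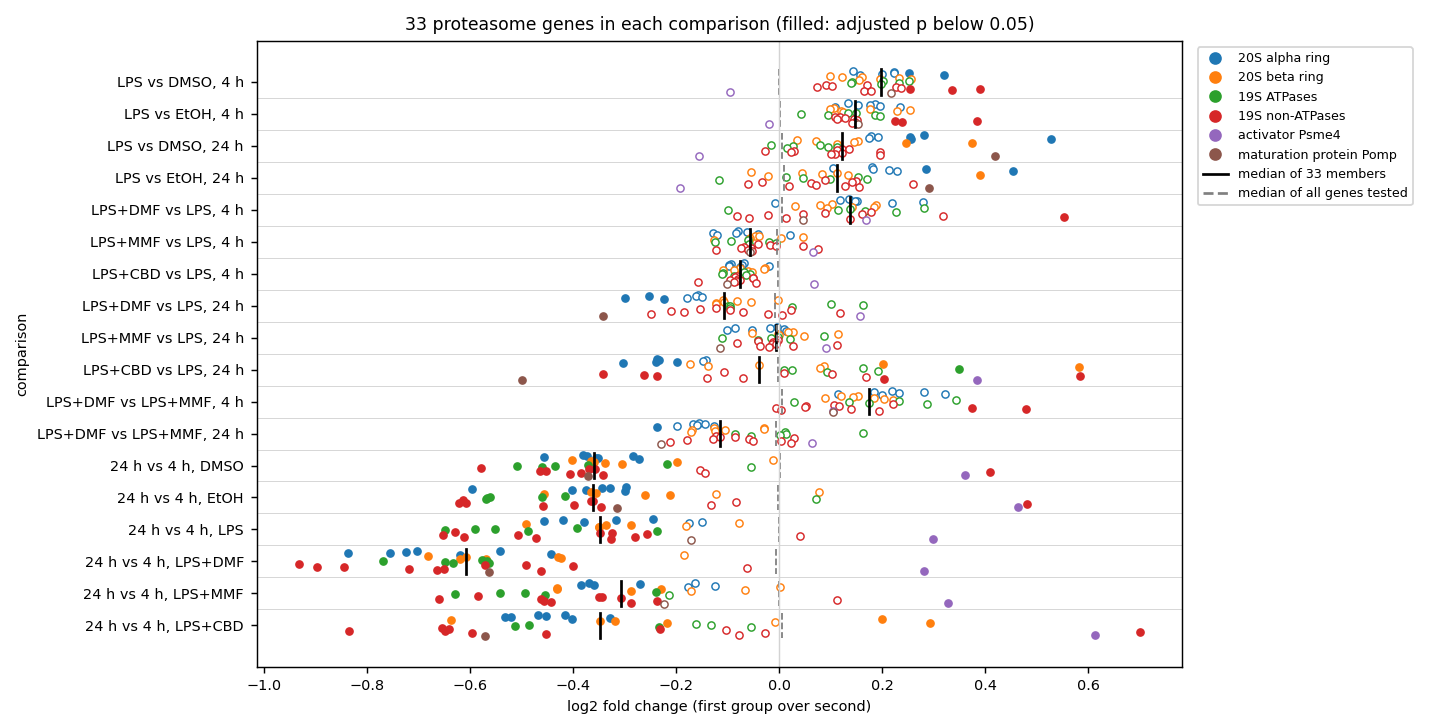
Log2 difference of each of the 33 members (horizontal axis; 0 is no difference) in 18 comparisons, coloured by role, with filled points for members whose limma adjusted p was below 0.05. Black bars are the members' medians and dashed bars the medians of all genes; the 24 h against 4 h comparisons have medians of -0.31 to -0.61, and the other medians lie between -0.11 and 0.20.

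Each drug was given together with LPS and compared with LPS alone at the same time. With DMF at 4 h 1 member was called, Psmd11, where 4.55% of all genes were called higher and 11.1% either way. Psmd11 is the lid subunit that ties the regulatory particle to the core. It read 4378, 4108 and 4051 normalised reads in LPS+DMF cells and 2827, 2829 and 2879 with LPS alone, so that every LPS+DMF library stood far above every LPS library. The rise was 0.55 on the log2 scale (SE 0.08, limma adjusted p = 0.00197), and it was called in all 6 fits that left out a library.

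The rest of the set leaned the same way by less. At 4 h, 28 of 33 members had a positive difference (51.0% of all genes) and the median was 0.14, or 0.05 without LPS+DMF replicate 1, the library with the high share of reads. Psmd7 read 5906, 5037 and 5041 against 4169, 4535 and 4097 (0.32, SE 0.09, limma adjusted p = 0.0596), and 4 members had an unadjusted p below 0.05. Psmb5 (0.18), Psme4 (0.17), Psmd4 (0.16), Psmb6 (0.14), Psmd14 (0.14), Psmb7 (0.09) and Pomp (0.05) were not called. DESeq2 called 2 members, a fit over all 36 libraries 6, the GC and length trend 6, and that trend with the replicate block 10. For these fits the share of all genes called is not given here.

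With DMF at 24 h other members were called. In the fit without a replicate block all of them were lower, at a share near that of all genes called lower in that same fit. Pomp and the alpha genes Psma6, Psma3 and Psma7 made up the 4 called members, where 13.2% of all genes were called lower and 25.1% either way, and none was called higher. Pomp read 1834, 1686 and 1938 against 2397, 2183 and 2336 with LPS, and fell by 0.34 (SE 0.08, limma adjusted p = 0.0101). Psma6 read 2993, 3074 and 3226 against 3724, 3799 and 3903, and fell by 0.30 (SE 0.07, limma adjusted p = 0.00907). Psma3 read 1801, 1780 and 1795 against 2343, 1996 and 2084 (-0.25, SE 0.08), and Psma7 differed by -0.22 (SE 0.07). All 7 alpha genes had negative differences, with a median of -0.18, against -0.11 over the 33 members.

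Pomp and Psma6 were called in all 6 fits that left out a library, and Psma3 and Psma7 in 1 each. The count was 2 without any 1 of the LPS+DMF libraries or without LPS replicate 1 or 3. In this comparison the replicate numbers paired the libraries, with same-numbered deviations correlated at 0.215 to 0.509. With the number as a block the count was 11, 10 lower and 1 higher. The share of all genes called with the block is not given here, so that count cannot be set against it. The 1 higher was Psme4 (0.16, limma adjusted p = 0.144, or 0.0483 with the block). Psmb6 (-0.12), Psmb7 (-0.12), Psmb5 (-0.05), Psmd4 (0.02) and Psmd14 (0.01) were not called. Psmd11, raised at 4 h, differed by 0.12 (adjusted p = 0.221).

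**Figure D5:**
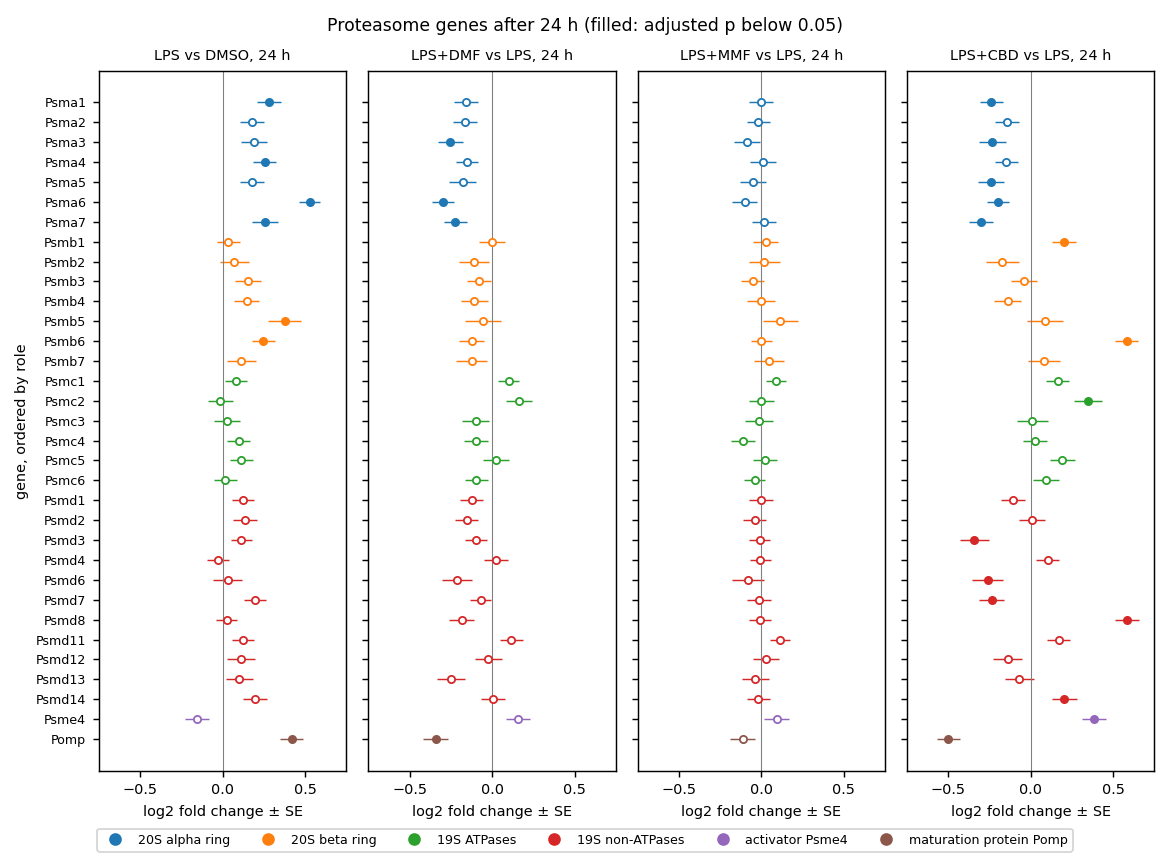
Log2 difference ± SE of each of the 33 members at 24 h, for LPS against DMSO and for LPS+DMF, LPS+MMF and LPS+CBD against LPS, with filled points where the limma adjusted p was below 0.05. The alpha genes and Pomp lie to the right of 0 for LPS and to the left for LPS+DMF and LPS+CBD; no point is filled for LPS+MMF. The 4 panels use the same LPS libraries.

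With CBD at 24 h the called members went in both directions, at shares near those of all genes. Against LPS alone 6 members were higher and 9 lower, where 23.9% of all genes were called higher, 24.8% lower and 48.7% either way, and the median of the members was -0.04. The higher ones were Psmd8, Psmb6, Psme4, Psmc2, Psmd14 and Psmb1. The lower ones were Pomp, 5 of the 7 alpha genes (Psma1, Psma3, Psma5, Psma6 and Psma7) and the lid genes Psmd3, Psmd6 and Psmd7. All 7 alpha genes had negative differences and groups that did not overlap (29.4% of all genes were lower without overlap), whereas all 6 ATPases had positive differences, with Psmc2 alone called.

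Psmd8 and Psmb6 had the largest rises. Psmd8 read 11021, 10794 and 11004 normalised reads in LPS+CBD cells against 7542, 7069 and 7287 with LPS (0.58, SE 0.07, limma adjusted p = 0.000197). Psmb6, the caspase-like subunit, read 2707, 2647 and 2831 against 1858, 1782 and 1821 (0.58, SE 0.07, limma adjusted p = 0.000155). In neither case did any LPS library come near the LPS+CBD libraries. Mitochondrial genes took 1.44%, 2.32% and 2.04% of the reads in the LPS libraries and less in all 3 LPS+CBD libraries (median 1.33%), and the part of this difference in these results was not tested. The other catalytic subunits were not called: Psmb5 read 1268, 1216 and 1179 against 1330, 992 and 1149 (0.09, SE 0.11) and Psmb7 2247, 2019 and 1970 against 1739, 2002 and 2177 (0.08, SE 0.10), with overlapping groups. Psme4 read 1900, 1982 and 1916 against 1429, 1551 and 1464 (0.38, SE 0.07). Psmc2, an ATPase, rose by 0.35 (SE 0.08).

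Pomp fell most. It read 1650, 1656 and 1620 against 2414, 2205 and 2353, and fell by 0.50 on the log2 scale (SE 0.07, limma adjusted p = 0.000423). The lid subunit Psmd3 read 3260, 3103 and 2674 against 3859, 3672 and 3884 (-0.34, SE 0.09), and Psma7 3645, 3640 and 3479 against 4627, 4157 and 4503 (-0.30, SE 0.07). The other called falls were log2 differences of -0.20 to -0.26, each without overlap of the groups.

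The calls of smaller changes were less stable when a library was left out, which also lowers the number of samples. Psmd8, Psmb6, Psme4, Psmc2, Pomp, Psmd3 and Psma7 were called in all 6 fits that left out a library, while Psmd14 (0.20, adjusted p = 0.0484) and Psmb1 (0.20, adjusted p = 0.046) were called by limma in 1 each. The count of 15 was 8 without LPS+CBD replicate 1, 9 without its replicate 2, 7 without its replicate 3 and 7 without LPS replicate 3. With the replicate block it was 18, and the share of all genes called with the block is not given here. Psmd4 (0.10) was not called.

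No member was called with MMF at either time or with CBD at 4 h. For MMF at 4 h the median difference from LPS was -0.06 and the 95% confidence intervals of the 33 members spanned -0.31 to 0.27 on the log2 scale, where 0.122% of all genes were called. No member had an unadjusted p below 0.05, and edgeR and DESeq2 called none. For MMF at 24 h the median was -0.01, the intervals spanned -0.30 to 0.35, 0.0% of all genes were called, no member had an unadjusted p below 0.05, and edgeR and DESeq2 called none. For CBD at 4 h the median was -0.08, the intervals spanned -0.30 to 0.26 and 0.00875% of all genes were called. There, 1 member had an unadjusted p below 0.05, and edgeR and DESeq2 called none.

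The named members were spread closely about 0 in these 3 comparisons. With MMF at 4 h their differences ran from -0.13 (Psmb7) to 0.07 (Psme4), with Psmb5 at 0.00 and Psmb6 at -0.06. With MMF at 24 h they ran from -0.11 (Pomp) to 0.11 (Psmb5), and with CBD at 4 h from -0.10 (Pomp) to 0.07 (Psme4). Psmd4 and Psmd14 lay between -0.05 and 0.05 in all 3. With 3 libraries a group, differences smaller than these intervals could not be shown.

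DMF and MMF, the dimethyl and the monomethyl ester of fumaric acid, were given at the same 30 µM and compared with each other at each time. By the main fit, of each pair alone and without a replicate block, few members were called. At 4 h that fit called 2 members, Psmd11 and Psmd7, both higher with DMF, where 3.37% of all genes were called higher and 8.34% either way. A fit over all 36 libraries called 12 at 4 h, and its share of all genes called is not given here. Psmd11 read 4494, 4187 and 4143 with DMF and 2990, 3188 and 3014 with MMF (0.48, SE 0.08, limma adjusted p = 0.00695). Psmd7 read 6063, 5135 and 5157 against 4193, 4296 and 4093 (0.37, SE 0.09, limma adjusted p = 0.0297), and was called in 2 of the 6 fits that left out a library. The median over the members was 0.18, or 0.09 without LPS+DMF replicate 1, and the 95% intervals of the 33 members spanned -0.23 to 0.66.

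The count at 4 h was 1 without LPS+DMF replicate 3 or any 1 of the LPS+MMF libraries, and 3 without LPS+DMF replicate 2. Psmb7 (0.22), Psmb6 (0.20), Psmd14 (0.19), Psmb5 (0.18), Psmd4 (0.12), Psme4 (0.11) and Pomp (0.10) were not called. At 24 h 1 member was called, Psma7, which read 3748, 3828 and 3986 with DMF and 4270, 4539 and 4832 with MMF (-0.24, SE 0.07, limma adjusted p = 0.0299), where 11.4% of all genes were called lower and 21.5% either way. The median was -0.11 and the intervals spanned -0.40 to 0.31. With the replicate block 11 members were called, among them Pomp (-0.23, adjusted p = 0.0623, or 0.00351 with the block), Psmb7 (-0.17, 0.124 or 0.0153) and Psmb5 (-0.17, 0.174 or 0.0329), all by limma. The share of all genes called with the block is not given here, and not every library correlated best with its own replicate number. The Psma7 call of the main fit was absent without any 1 of the LPS+DMF libraries or LPS+MMF replicate 3. The main fit's count was 2 without LPS+MMF replicate 1 or 2. Psmb6 (-0.12), Psme4 (0.06), Psmd4 (0.03) and Psmd14 (0.02) were not called. CBD was given at 6 µM and was not compared with either ester.

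Whether these effects differed between the times was tested as an interaction, the effect at 24 h minus that at 4 h. For LPS the effect differed in 1 member against DMSO (9.36% of all genes) and in 2 against EtOH (9.05%), with Psmd8 in both. For DMF it differed in 4 members, all more negative at 24 h (8.15% of all genes, and 16.4% either way), among them Psmd11, whose difference was 0.55 at 4 h and 0.12 at 24 h. For CBD it differed in 8 (31.9% of all genes), with Psmd8 at -0.08 at 4 h and 0.58 at 24 h, Psmb6 at -0.06 and 0.58, and Pomp at -0.10 and -0.50. For MMF it differed in none by limma (0.0% of all genes), none had an unadjusted p below 0.05, and edgeR and DESeq2 called none.

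The vehicles themselves gave no called member: between DMSO and EtOH 0.0% of all genes were called at 4 h and 0.00854% at 24 h. No member had an unadjusted p below 0.05 at 4 h and 1 had at 24 h, and edgeR and DESeq2 called none at 4 h and none at 24 h.

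Other genes of the pathway were counted list by list. The immunoproteasome and PA28 list (Psmb8, Psmb9 and Psmb10, the inducible catalytic subunits, with the activator genes Psme1 and Psme2) was higher with LPS at 24 h: 5 of 5 were called higher against DMSO and 5 of 5 against EtOH, with medians of 0.63 and 0.54, where 12.1% and 10.8% of all genes were called higher. Psme2 rose by 0.81 in both, and Psmb9 by 0.77 and 0.53. With DMF at 24 h 3 of these 5 were lower (Psmb9 -0.43, Psmb10 -0.31 and Psme1 -0.25; 13.2% of all genes), at 4 h 1 was (Psmb10 -0.78), and with CBD at 24 h none was called by limma or had an unadjusted p below 0.05. Of the 7 assembly chaperones, 3 were higher with LPS at 24 h against DMSO (Psmd10 0.71, Psmg2 0.36 and Psmd5 0.29) and none lower. With DMF at 4 h Psmd5 was higher (0.64).

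Of 9 genes that control proteasome expression, 6 were higher with CBD at 24 h and none lower, where 23.9% of all genes were called higher and 48.7% either way. Among them were Nfe2l1, the transcription factor known to raise proteasome genes when the protease is blocked (0.94, SE 0.09), Mafk (0.50) and Ddi2, the protease that activates Nfe2l1 (0.49). With DMF at 24 h, where 25.1% of all genes were called either way, 5 were higher and none lower (Nfe2l1 0.55, Ngly1 0.45, Mafk 0.36, Ddi2 0.32 and Nfe2l2 0.27). With DMF at 4 h, where 4.55% of all genes were called higher, 3 were higher (Maff 0.88, Mafg 0.76 and Mafk 0.38) and Nfe2l2 was lower (-0.33). These counts stand beside the 6 higher and 9 lower of 33 subunits with CBD, and the 4 lower with DMF, at 24 h.

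Among the ubiquitin and shuttle genes, the ubiquitin receptor Sqstm1 (2.39) and the polyubiquitin gene Ubb (0.93) were higher with CBD at 24 h and Uba1, the ubiquitin-activating enzyme, was lower (-0.54). Sqstm1 was also higher with DMF at 4 h (1.18) and 24 h (1.15). Of 10 other proteasome-associated genes, Zfand2a (1.62) and Zfand5 (0.69) were higher and Psme3 lower (-0.29) with CBD at 24 h. Between 24 h and 4 h, 5 to 7 of these 10 were called lower in each treatment, where 24.3% to 31.6% of all genes were, as with LPS for the ubiquitin receptor Adrm1 (-0.76), Psme3 (-0.74) and the deubiquitinases Uchl5 (-0.61) and Usp14 (-0.53). The tissue-restricted core genes Psma8 and Psmb11 did not pass the filter in any comparison.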

How the data were processed

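Poly(A) RNA of BV-2 cells was sequenced in 36 libraries. According to the submitters' processing notes, reads were checked with FastQC 0.12.1, trimmed with cutadapt 4.4 and Trimmomatic 0.39, aligned to GRCm39 with HISAT2 2.2.1 and counted with HTSeq 2.0.3, and counts were normalised with DESeq2 1.40.2 in R 4.3.1; whether reads were counted by strand is not given in the sources used here. The 30 deposited tables, 1 for each pair of groups, hold for 6 libraries a signal that the authors made by dividing read counts by the size factors of that pair (0.750 to 1.53 as recovered), so a library's value differs between pairs. The authors' own fold changes and p-values in these tables were not used. Whole reads were recovered from 155 of the 180 library columns. The other 25 had a size factor near 1, and their libraries' reads came from other tables. All values (100% of 2695078) lay within 0.01 of a whole read, and none of 2020699 values compared between tables differed.

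Each pair was tested with limma 3.58.1 in R 4.3.3 (trended prior) on log2(normalised count + 1) over genes with at least 10 in at least 3 libraries, and adjusted by Benjamini-Hochberg over all genes tested at 0.05. This scale slightly understates the change of low genes. The difference of an effect between 24 h and 4 h was an interaction term over 12 libraries, fitted on the recovered reads after median-of-ratios scaling of those 12. Profiles over the 12 groups and the counts over 18 libraries use 1 such scaling of all 36 libraries. Shares of reads are recovered reads over all counted reads of the library, without scaling. The limma fit of a pair was run on simulated data modelled on DMF against LPS at 4 h and CBD against LPS at 24 h. Those libraries were independent and had a fixed dispersion, unlike the paired replicates here. The interaction and the alternative fits were not run on simulated data. Replicates of a group differed by more than sampling noise (chi-square per degree of freedom 4.60 to 29.1), so none was merged. Alternatives were no filter, a pseudocount of 10, TMM scaling, edgeR 4.0.16, DESeq2 1.42.0, 1 fit of all 36 libraries, an added log2 limit of 0.5, removal of a GC and length trend, a replicate block and leaving out each library.

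Replicate numbers 1 to 3 (LPS groups) or 4 to 6 (vehicles) were taken to pair libraries where every same-numbered pair had deviations from its group means that correlated above 0.1. This held for DMF, MMF and CBD against LPS at 24 h (0.127 to 0.677), DMF and CBD against LPS at 4 h, DMF against MMF at 24 h, DMSO against EtOH and the times of LPS and LPS+MMF. In some of these not every library correlated best with its own number. They were DMF against LPS at 4 h, CBD against LPS and DMF against MMF at 24 h, and the times of LPS+MMF.

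The members and lists were chosen with earlier results of these data known. Named in each comparison were up to 3 called members in each direction, taken by size of change, with Psmb5, Psmb6, Psmb7, Pomp, Psme4, Psmd4 and Psmd14 throughout. A gene of the ubiquitin list is not reported here. Gene lengths were not used to compare levels between genes. Groups given LPS with a drug were not compared with vehicles, nor CBD with the esters.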

Additional observations from a re-analysis of the deposited data

Results flagged for a closer look

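The results in this section are effects that differed between the exposure times, tested as an interaction (24 h minus 4 h, limma, Benjamini-Hochberg over all genes tested). For LPS against DMSO 1 of the 33 members differed, where 9.36% of all genes did: the rise of the lid subunit Psmd8 was smaller at 24 h (-0.37 on the log2 scale, adjusted p = 0.0162). For LPS against EtOH 2 differed (9.05% of all genes), Psmd8 (-0.44, adjusted p = 0.0115) and the ATPase Psmc6 (-0.31, adjusted p = 0.0410). The latter count was 1 without LPS replicate 1 or 3 at 4 h, LPS replicate 2 or 3 at 24 h, or any 1 of the EtOH libraries. The 2 contrasts share the LPS libraries.

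For DMF against LPS 4 members differed, all more negative at 24 h, where 8.15% of all genes were more negative and 16.4% differed either way. They were the alpha genes Psma5 (-0.46, adjusted p = 0.0471) and Psma7 (-0.45, adjusted p = 0.0145) and the lid genes Psmd11 (-0.44, adjusted p = 0.00706) and Psmd7 (-0.40, adjusted p = 0.0272), all by limma. The count was 2 without any 1 of the LPS+DMF libraries at 24 h, LPS replicate 3 at 4 h or LPS replicate 1 or 3 at 24 h, and 8 without LPS+DMF replicate 2 at 4 h. Psma7 and Psmd11 were called in all 12 fits that left out a library, Psmd7 in 5 and Psma5 in 3.

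For CBD against LPS 8 members differed (31.9% of all genes): Psmd8 (0.67, adjusted p = 0.000178), Psmb6 (0.65), Psmc2 (0.47), Psme4 (0.32), Psmd11 (0.26), Psmd14 (0.26) and Psmc1 (0.24) were more positive at 24 h and Pomp (-0.39) was more negative. Psmb6, Psmc2, Psmd8 and Pomp were called in all 12 fits that left out a library, Psmd11 in 7, Psme4 in 3, Psmd14 in 1 and Psmc1 in none. The count was 5 without any 1 of the LPS+CBD libraries at 4 h, LPS+CBD replicate 2 at 24 h, LPS replicate 3 at 4 h or LPS replicate 1 at 24 h, and 4 without replicate 3 of LPS+CBD or of LPS at 24 h. For MMF against LPS no member differed (0.0% of all genes).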

How the results depend on the processing

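None of the results reversed under any alternative run. Of 1404 values of named members under alternatives other than leaving out a library, 1359 kept their side of the threshold, 20 lost their call and 25 gained one. Of 984 with 1 library left out, 907 kept it, 73 lost it and 4 gained one. The cause of the changes below was not tested, apart from the added log2 limit, which can only lower a count, and the left-out libraries, which lower the number of samples. Shares of all genes called are given for the main fits alone, so the counts below have no such share beside them.

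With the GC and length trend removed, the count of called members was 1 for LPS against DMSO and 1 against EtOH at 4 h, 3 and 2 at 24 h, 6 for DMF against LPS at 4 h, 2 for DMF against MMF at 24 h, 1 for the interaction of LPS against EtOH and 13 for that of DMF. Under it the members' medians were 0.11 and 0.0670 for LPS against DMSO and EtOH at 4 h and 0.0636 and 0.0451 at 24 h. With an absolute log2 difference above 0.5 also required, it was 0 for LPS against each vehicle at 4 h, 1 against DMSO and 0 against EtOH at 24 h, 0 for DMF and 2 for CBD against LPS at 24 h and 0 for DMF against MMF at both times. Under that limit it was 2 for the times of DMSO, 7 of EtOH, 7 of LPS, 4 of LPS+MMF and 12 of LPS+CBD, 0 for the interactions of LPS against either vehicle and of DMF, and 2 for that of CBD. One fit of all 36 libraries called 12 members for LPS against DMSO and 5 against EtOH at 4 h, 6 for DMF against LPS at 4 h, and 12 and 2 for DMF against MMF at 4 h and 24 h. DESeq2 called 2 for DMF against LPS at 4 h, and without the filter the interaction of LPS against EtOH had 1.

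With replicate number fitted as a block, the counts were 11 for DMF against LPS and 11 for DMF against MMF at 24 h, and 7 for the interaction of DMF. The block changed no other count by over 1.5 times. With the block and the GC and length trend removed together, they were 10 and 13 for DMF against LPS at 4 h and 24 h and 12 for DMF against MMF at each time. The numbers did not pair the libraries for MMF against LPS or DMF against MMF at 4 h or for the times of DMSO, EtOH, LPS+DMF and LPS+CBD. No paired analysis was possible because the groups share no replicate number for LPS against the vehicles.

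With 1 library left out, the counts ranged from 1 to 5 and 1 to 2 for LPS against DMSO and EtOH at 4 h, 2 to 10 and 1 to 6 at 24 h, 2 to 6 for DMF and 7 to 12 for CBD against LPS at 24 h, and 1 to 3 and 0 to 2 for DMF against MMF at 4 h and 24 h. For the interactions they ranged from 1 to 2 for LPS against EtOH, 2 to 8 for DMF and 4 to 6 for CBD. The median of the times of LPS+MMF ranged from -0.37 to -0.28. With all 36 libraries scaled together, every member held at least 822 normalised reads in every library. Replicate libraries differed by more than counting error (chi-square per degree of freedom 4.60 to 29.1).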
